A study of Mus musculus with 9 samples.

Results

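The Notch pathway was followed through 10 of the 18639 gene entries in mouse glioma tissue: the receptors Notch1, Notch2, Notch3 and Notch4, the ligands Jag1, Jag2, Dll1 and Dll4, and the targets Hes1 and Hey1. The genes were taken by their symbols. Notch3 and Hes1 were chosen by their TPM in these same libraries, which an earlier look found lower with ThTC, and the other 8 complete the pathway. Values of Notch3 and Hes1 with ThTC are therefore given as a description with no test. The tissue was tumour from mouse brains, taken 5 days after the tumour had been resected, of CT2A, an established mouse glioma line. There were 3 groups of 3 bulk RNA-seq libraries: ThTC, which received CT2A cells that secrete IFNβ and GM-CSF, GFP-TC, which received control cells, and sECM only, for which no added cells are named. The abbreviation sECM is not spelled out in the labels, which give no strain, age or sex of the mice. Whether each library is a different animal is not stated, so p-values measure the spread between these libraries only. Values are TPM, a transcript level corrected for gene length and scaled to the same total in every library, so a level can be compared between genes. TPM keeps no read depth, and the labels give just a sequencing yield of 4.47 Gb for a sample.

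Notch receptors are membrane proteins that are activated by ligands on a neighbouring cell. Ligand binding lets proteases of the ADAM family and then gamma-secretase cut the receptor, and the freed intracellular part enters the nucleus, joins the DNA-binding protein Rbpj and Mastermind co-activators, and switches on repressor genes of the Hes and Hey families. In blood vessels Notch3 is known from pericytes and smooth muscle cells, Notch4 and Dll4 from endothelial cells, and in glioma Notch1 and Notch2 are studied in the tumour cells themselves. In bulk tissue, fewer cells of a type and less RNA per cell cannot be told apart.

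Glioma-associated genes were present in every library: Vim, an intermediate filament gene, lay between 3262 and 4753 TPM and Sox2, a stem cell transcription factor gene, between 117 and 240 TPM over the 9 libraries. Brain tissue content differed widely. The summed level of 9 neuron markers was 372 to 1879 TPM in ThTC, 243 to 1652 TPM in GFP-TC and 412 to 638 TPM in sECM only, and was highest in ThTC 3 and GFP-TC 3. The summed level of 8 monocyte and macrophage markers was 1597 to 2866 TPM in ThTC, 768 to 1561 TPM in GFP-TC and 1114 to 1427 TPM in sECM only, so it was higher in every ThTC library. Of its most abundant marker, Lyz2, the mean was 1036 TPM in ThTC, 498 TPM in GFP-TC and 491 TPM in sECM only. Summed T cell markers were at 88.1 to 102 TPM in ThTC, 6.68 to 83.1 TPM in GFP-TC and 19.8 to 90.6 TPM in sECM only. Fibroblast, astrocyte, oligodendrocyte, red blood cell and choroid plexus sums overlapped between ThTC and the other groups. The part of these in the values below was not tested, except that a fit with the neuron markers as a covariate was an alternative.

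All 10 genes reached 1 TPM or more in all 9 libraries, so none entered the tests through one group alone. Hes1, a transcriptional repressor, had the highest mean level over the libraries at 123 TPM, followed by Jag1 at 58.1 TPM, Notch2 at 44.6 TPM, Hey1 at 41.8 TPM and Notch1 at 20.2 TPM. Notch3 at 8.02 TPM, Notch4 at 6.87 TPM, Dll4 at 4.87 TPM, Dll1 at 3.38 TPM and Jag2 at 3.08 TPM formed the low end. Neighbours in this order were separated in all 9 libraries for Hes1 over Jag1, Hey1 over Notch1, Notch1 over Notch3, and for Notch4 over Dll4 over Dll1. Jag1 lay above Notch2 in 8 of 9 libraries. Notch2 lay above Hey1 in only 5 of 9 libraries, and Notch3 above Notch4 and Dll1 above Jag2 in 6 of 9 each, so those neighbours were not separated. Notch2 made up 52.3% to 63.97% of the summed receptor level in each library, and Jag1 74.5% to 87.3% of the summed ligand level.

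**Figure D1:**
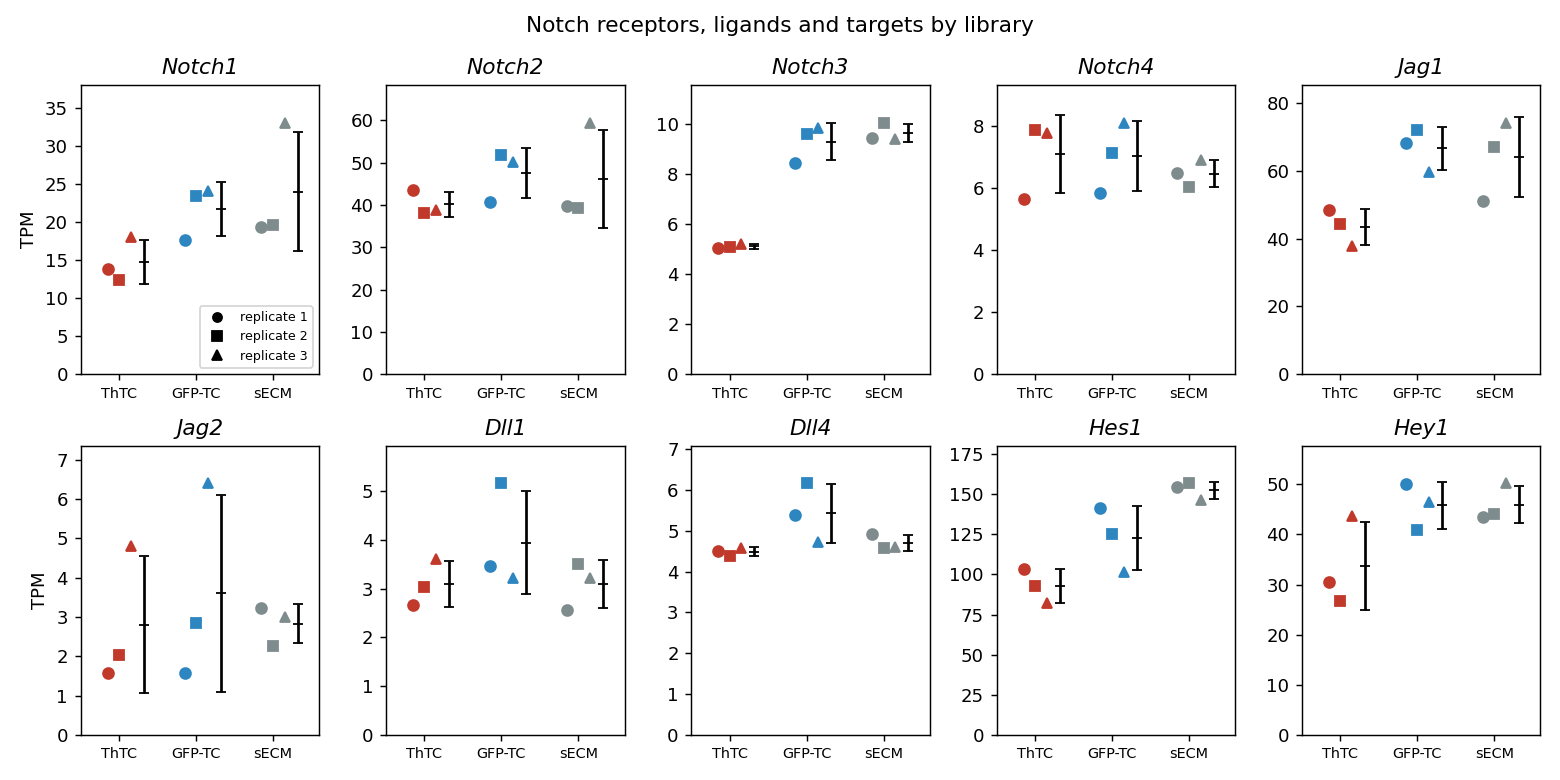
TPM of each of the 10 genes (y axis, from 0, own scale per panel) in the ThTC, GFP-TC and sECM only libraries (x axis), with 1 symbol per library and the mean ± SD of 3 libraries in black beside them. All 3 ThTC libraries lie below the 6 others for Notch3 and Jag1, and the groups overlap in every comparison for Notch2, Notch4, Jag2, Dll1 and Hey1.

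Among the receptors, Notch3 was low in every ThTC library. Its level was 5.05, 5.07 and 5.22 TPM in ThTC, 8.46, 9.62 and 9.83 TPM in GFP-TC, and 9.46, 10.06 and 9.40 TPM in sECM only. The 3 ThTC libraries stood close together and below all 6 others, at a mean of 5.11 ± 0.093 TPM, against means of 9.30 ± 0.74 TPM in GFP-TC libraries and 9.64 ± 0.37 TPM in sECM only libraries (SD, n = 3 each). The ThTC mean was 55.0% of the GFP-TC mean and 53.0% of the sECM only mean. These are the values that led to the choice of the gene. In the comparison that did not choose it, GFP-TC with sECM only, the groups overlapped and the log2 fold change of TPM + 1, the scale of every log2 fold change here, was -0.048 (95% interval -0.33 to 0.24, limma adjusted p = 0.997). After median-of-ratios scaling those 2 groups no longer overlapped, with GFP-TC lower at -0.13 (limma adjusted p = 0.9996, range over the alternatives 0.966 to 1).

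Notch3 and the ligand gene Jag1 were the only 2 of the 10 genes whose ThTC libraries all lay below the 6 others, a pattern that 7.58% of all tested genes showed. The bases before their transcription start are therefore shown (250 bases, 5′ to 3′ along the gene, RefSeq, GRCm38.p6). The Notch3 window lies on the minus strand at chr17:32166891-32167140 and the Jag1 window on the minus strand at chr2:137116521-137116770. The Notch3 window reaches slightly into the gene span of 32120820 to 32166896 given below. Capitals mark GGGCGG or its reverse complement CCGCCC, the GC box bound by Sp1 and related factors.
Notch3: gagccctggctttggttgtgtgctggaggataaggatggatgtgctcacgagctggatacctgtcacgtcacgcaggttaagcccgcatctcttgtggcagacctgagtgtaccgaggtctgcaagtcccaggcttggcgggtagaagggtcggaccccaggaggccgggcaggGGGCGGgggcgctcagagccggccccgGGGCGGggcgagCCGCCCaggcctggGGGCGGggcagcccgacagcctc
Jag1: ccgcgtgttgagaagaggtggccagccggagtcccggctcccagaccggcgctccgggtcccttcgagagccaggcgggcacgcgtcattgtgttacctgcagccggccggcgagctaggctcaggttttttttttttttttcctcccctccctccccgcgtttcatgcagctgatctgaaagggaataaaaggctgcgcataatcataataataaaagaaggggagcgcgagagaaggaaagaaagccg
The Notch3 window held 4 GC boxes and was 68.8% G and C, and the Jag1 window held 0 and was 57.2% G and C. GC boxes were not particular to Notch3, as 5 of the 8 receptor and ligand genes had them. Notch1, Notch2 and Jag2 held 5 each and Dll4 held 2. Over all 32851 promoter windows of the table, 32.7% held at least 1 GC box on either strand. The Rbpj core letters TGGGAA or TTCCCA, which 21.6% of all windows held, were in none of the 9 windows of the 8 receptor and ligand genes. Hes1 and Hey1 had no window in the table. No match says only that these letters are not in these windows.

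Notch1, the receptor best known from T cell and stem cell biology, was at 13.8, 12.4 and 18.0 TPM in ThTC, 17.7, 23.5 and 24.1 TPM in GFP-TC, and 19.3, 19.7 and 33.1 TPM in sECM only. ThTC lay below every sECM only library and overlapped GFP-TC through ThTC 3 and GFP-TC 1. Same-numbered ThTC and GFP-TC libraries tended to deviate together, though weakly for number 2 (correlations 0.743, 0.124 and 0.874). Within these 3 pairs ThTC was lower in 3 for Notch1, Notch3, Jag1, Dll4, Hes1 and Hey1, and in 2 for the other genes. For Notch3, Jag1 and Dll4 this follows from groups without overlap, and Notch3 and Hes1 were chosen for being lower. The same count over all tested genes was not made, and 66.2% of them had a lower mean log2 level with ThTC than with GFP-TC. The Notch1 log2 fold change was -0.53 ± 0.23 (SE) against GFP-TC and -0.64 ± 0.23 against sECM only, and neither passed in limma (adjusted p = 0.33 and 0.69). Without sECM only 3, the highest library, the log2 fold change against sECM only was -0.39. After median-of-ratios scaling, which divides each library by its typical ratio to the others, ThTC no longer overlapped with GFP-TC.

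Notch2 was at 43.5, 38.1 and 38.8 TPM in ThTC, 40.8, 51.8 and 50.1 TPM in GFP-TC, and 39.7, 39.2 and 59.4 TPM in sECM only. The groups overlapped in both comparisons, and sECM only 3 stood highest for both Notch1 and Notch2. The interval of the Notch2 log2 fold change ran from -0.62 to 0.15 against GFP-TC and from -0.56 to 0.22 against sECM only (limma adjusted p = 0.51 and 0.80).

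Notch4, the endothelial receptor, was at 5.64, 7.89 and 7.78 TPM in ThTC, 5.86, 7.14 and 8.12 TPM in GFP-TC, and 6.49, 6.04 and 6.90 TPM in sECM only. Its groups overlapped, and the interval of its log2 fold change was -0.39 to 0.41 against GFP-TC and -0.30 to 0.51 against sECM only (limma adjusted p = 0.995 and 0.88). As a share of the summed receptor level, which does not depend on how the libraries are scaled to each other, Notch3 made up 7.43% to 7.98% in ThTC, 10.5% to 11.6% in GFP-TC and 8.64% to 13.4% in sECM only. Notch4 made up 8.30% to 12.4% in ThTC, 7.76% to 8.81% in GFP-TC and 6.34% to 8.66% in sECM only.

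Among the ligands, Jag1, the most abundant, was at 48.5, 44.2 and 37.9 TPM in ThTC, 68.2, 72.1 and 59.7 TPM in GFP-TC, and 51.0, 67.1 and 74.3 TPM in sECM only. The ThTC libraries lay below all 6 others, by a small gap from ThTC 1 to sECM only 1. Means were 43.5 ± 5.29 TPM in ThTC libraries, 66.6 ± 6.33 TPM in GFP-TC libraries and 64.1 ± 11.9 TPM in sECM only libraries (SD, n = 3 each). Jag1 was included to complete the pathway. Its log2 fold change was -0.61 ± 0.15 (SE) against GFP-TC (limma adjusted p = 0.32) and -0.54 ± 0.15 against sECM only (limma adjusted p = 0.69). Neither passed the adjustment over all 13829 tested genes.

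Dll4, a ligand of sprouting endothelial cells, was at 4.51, 4.37 and 4.58 TPM in ThTC, 5.39, 6.16 and 4.72 TPM in GFP-TC, and 4.93, 4.57 and 4.6 TPM in sECM only. ThTC lay below GFP-TC without overlap as deposited, with ThTC 3 and GFP-TC 3 the closest pair, but overlapped after median-of-ratios scaling, and it overlapped with sECM only. The log2 fold change was -0.22 ± 0.15 (SE) against GFP-TC (limma adjusted p = 0.48) and -0.055 ± 0.15 against sECM only (adjusted p = 0.92).

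Dll1, a further ligand of the Delta type, was at 2.66, 3.03 and 3.60 TPM in ThTC, 3.46, 5.16 and 3.22 TPM in GFP-TC, and 2.56, 3.51 and 3.21 TPM in sECM only. Jag2 was at 1.58, 2.03 and 4.81 TPM in ThTC, 1.57, 2.84 and 6.40 TPM in GFP-TC, and 3.23, 2.27 and 3.0 TPM in sECM only. Both overlapped in every comparison, and Jag2 was highest in ThTC 3 and GFP-TC 3, the 2 libraries rich in neuron markers. The interval of the Dll1 log2 fold change was -0.73 to 0.22 against GFP-TC and -0.47 to 0.48 against sECM only (limma adjusted p = 0.56 and 0.998). That of Jag2 was wide, at -1.20 to 0.75 against GFP-TC and -1.07 to 0.88 against sECM only (limma adjusted p = 0.86 and 0.95).

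Of the targets, Hes1 was ordered by group. It was at 103.1, 93.0 and 82.3 TPM in ThTC, 141.5, 125.1 and 101.7 TPM in GFP-TC, and 154.3, 156.7 and 146.5 TPM in sECM only. ThTC lay below sECM only without overlap and overlapped GFP-TC only through ThTC 1 and GFP-TC 3. The mean was 92.8 ± 10.4 TPM in ThTC, which was 75.6% of the 122.8 ± 20.0 TPM in GFP-TC and 60.9% of the 152.5 ± 5.32 TPM in sECM only (SD, n = 3 each), and these are again values that led to the choice of the gene. GFP-TC also lay below sECM only without overlap as deposited, at a log2 fold change of -0.32 ± 0.13 (SE; limma adjusted p = 0.997), and overlapped after median-of-ratios scaling. Without GFP-TC 3 the log2 fold change was -0.20. That comparison shares the sECM only libraries with the one that chose Hes1.

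Hey1, a related repressor, was at 30.6, 26.8 and 43.7 TPM in ThTC, 50.1, 40.9 and 46.5 TPM in GFP-TC, and 43.5, 44.2 and 50.2 TPM in sECM only. ThTC 1 and ThTC 2 were the lowest of all libraries, while ThTC 3 lay within the range of both other groups. The log2 fold change was -0.46 ± 0.17 (SE) against both GFP-TC and sECM only, and neither passed in limma (adjusted p = 0.32 and 0.69). Between GFP-TC and sECM only it was -0.0068 (95% interval -0.40 to 0.38, limma adjusted p = 0.998).

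Read together, 9 of the 10 genes had a lower mean log2 level with ThTC than with GFP-TC and 8 of 10 than with sECM only, where 66.2% and 55.6% of all tested genes were lower. Of the 8 genes not picked for their values, 7 were lower against GFP-TC (median log2 fold change -0.25) and 6 against sECM only (median -0.13). The median of all tested genes was -0.10 and -0.032. Both comparisons share the ThTC libraries, so their counts are not separate evidence. GFP-TC against sECM only had 4 of 10 genes lower, with a median of 0.066, where 28.2% of all tested genes were lower, with a median of 0.077. Apart from Hes1, its members overlapped between the groups as deposited. Their log2 fold changes lay between -0.11 for Notch1 (95% interval -0.64 to 0.43) and 0.26 for Dll1 (95% interval -0.22 to 0.74), and none passed in limma (adjusted p = 0.997 for both).

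ThTC lay below GFP-TC without overlap for 3 of the 10 genes (Notch3, Jag1 and Dll4), where 16.9% of tested genes did, and below sECM only for 4 (Notch1, Notch3, Jag1 and Hes1), where 12.1% did. No member lay above either without overlap, as 2.2% and 5.03% of tested genes did, which makes 19.1% and 17.1% without overlap in either direction. Between GFP-TC and sECM only, Hes1 was the 1 member without overlap, with GFP-TC lower, where 1.08% of tested genes were lower, 3.15% higher and 4.23% either. Notch3 and Hes1 are in these counts by choice. Of all genes without overlap, 88.5% were lower with ThTC than with GFP-TC as deposited and 51.1% once median-of-ratios factors were applied, and 70.7% and 50.4% against sECM only. That scaling moved the median of all genes against GFP-TC to 0.021. Under it ThTC lay below GFP-TC for 3 members (Notch1, Notch3 and Jag1, with Notch1 in and Dll4 out), where 6.72% of tested genes did, and below sECM only for 5 (Hey1 beside the 4 as deposited), where 7.81% did. None lay above, as 6.44% and 7.69% of tested genes did. GFP-TC then lay below sECM only for 1 member (Notch3), where 2.47% of tested genes did, and above for 0, where 2.04% did. The log2 fold change of Jag1 against GFP-TC was then -0.47, that of Notch1 -0.41, that of Hey1 -0.32 and that of Notch3 -0.63.

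No gene of the whole table passed an adjusted p of 0.05 in limma in any of the 3 comparisons (0% called each), with 2065, 954 and 129 genes (14.9%, 6.9% and 0.933%) at an unadjusted p under 0.05 for ThTC against GFP-TC, ThTC against sECM only and GFP-TC against sECM only. When ThTC and GFP-TC were fitted alone and blocked by replicate number, limma called 8 genes, and none was a Notch pathway gene listed here.

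**Figure D2:**
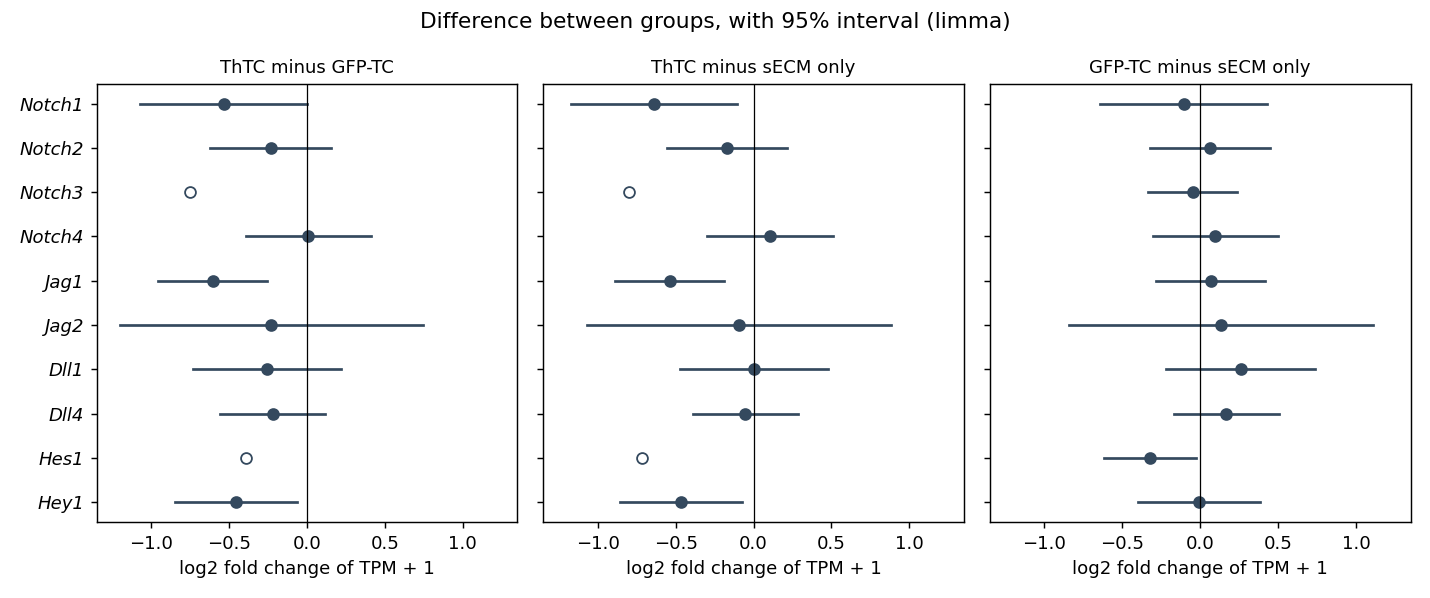
Log2 fold change of TPM + 1 (x axis) of each gene (y axis) in the 3 comparisons, with 95% intervals from limma over 9 libraries. Open circles without intervals are Notch3 and Hes1 in the ThTC comparisons, which chose them. The unadjusted intervals of Jag1 and Hey1 lie below 0 in both ThTC comparisons, that of Notch1 below 0 against sECM only, and that of Hes1 below 0 in GFP-TC against sECM only.

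Beside the 10 genes, 58 further genes of the pathway were listed by role, and 54 were tested. With limma, 0 passed the adjusted p in each comparison. Against GFP-TC, 42 of 54 had a lower mean log2 level with ThTC (77.8%, with 66.2% among all tested genes), at a median log2 fold change of -0.14. Against sECM only, 34 were lower (63.0%, with 55.6% among all tested genes), at a median of -0.094, with -0.032 over all tested genes. Between GFP-TC and sECM only, 9 were lower (16.7%, with 28.2% among all tested genes) and 45 higher. The median there was 0.095, near the 0.077 of all tested genes. After median-of-ratios scaling the median of the pathway genes against GFP-TC was -0.022, so the sign was kept and the size was smaller. The median of all tested genes moved in the same direction, from -0.10 to 0.021.

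The co-repressors, which hold target genes silent when no Notch signal is present, had a lower mean log2 level with ThTC than with GFP-TC in 10 of 10 genes (median log2 fold change -0.25) and than with sECM only in 8 of 10 (median -0.18), and none passed in limma. Spen and Tle3, which encode co-repressors, had all ThTC libraries below the 6 others, at means of 17.8 TPM in ThTC, 25.4 TPM in GFP-TC and 23.3 TPM in sECM only for Spen. For Tle3 the means were 58.99 TPM in ThTC, 77.4 TPM in GFP-TC and 72.4 TPM in sECM only. Tle2 averaged 2.86 TPM in ThTC, 6.67 TPM in GFP-TC and 3.97 TPM in sECM only. Cir1, which binds Rbpj, averaged 17.2 TPM in ThTC, 19.3 TPM in GFP-TC and 16.7 TPM in sECM only, and was the 1 pathway gene with GFP-TC above sECM only without overlap. Ctbp1, the most abundant, averaged 237 TPM in ThTC, 272 TPM in GFP-TC and 251 TPM in sECM only.

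In the nuclear complex, 7 of 8 genes were lower with ThTC than with GFP-TC (median -0.28) and 6 of 8 than with sECM only (median -0.17). Maml3, a Mastermind co-activator, was at 10.3, 7.87 and 8.54 TPM in ThTC, 14.7, 18.6 and 11.9 TPM in GFP-TC, and 13.1, 12.9 and 14.2 TPM in sECM only. All 3 ThTC libraries were below the 6 others, at a log2 fold change of -0.69 ± 0.17 (SE) against GFP-TC and -0.55 ± 0.17 against sECM only (limma adjusted p = 0.32 and 0.69). Kat2a, an acetyltransferase and the most abundant of the group, averaged 134 TPM in ThTC, 165 TPM in GFP-TC and 150 TPM in sECM only, and overlapped with sECM only.

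Genes of receptor processing were less uniform. Of the 9 genes for receptor cleavage, 5 were lower and 4 higher with ThTC than with GFP-TC (median -0.034), and 4 were lower than with sECM only (median 0.018). Psenen, a gamma-secretase subunit and the most abundant, averaged 257 TPM in ThTC, 228 TPM in GFP-TC and 254 TPM in sECM only. Aph1b, another subunit, lay below all 6 others at a mean of 8.10 TPM in ThTC, 10.2 TPM in GFP-TC and 9.43 TPM in sECM only. Of the 10 genes that modify receptors and ligands, 7 were lower against GFP-TC (median -0.16) and 6 against sECM only (median -0.049). Furin, the protease that matures the receptor, averaged 146 TPM in ThTC, 186 TPM in GFP-TC and 169 TPM in sECM only, and Poglut1, which adds glucose to the receptor, averaged 31.9 TPM in ThTC, 36.7 TPM in GFP-TC and 35.4 TPM in sECM only. Both lay below all 6 others. Of the 54 tested pathway genes, 7 did so and 0 lay above all 6, where 7.58% and 1.16% of all tested genes did.

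Among genes of receptor turnover and inhibition, 7 of 9 were lower against GFP-TC (median -0.13) and 5 of 9 against sECM only. Dtx2, a Deltex ubiquitin ligase, averaged 29.9 TPM in ThTC, 32.8 TPM in GFP-TC and 35.3 TPM in sECM only. Numbl, a Numb-like adaptor, averaged 90.1 TPM in ThTC, 98.7 TPM in GFP-TC and 94.3 TPM in sECM only. Of 8 genes listed as other targets 5 were tested, and 4 of these were lower in each ThTC comparison. Whether the listed genes respond to Notch in this tissue was not tested. Hes6, a gene of the Hes family and the most abundant of the list, averaged 24.7 TPM in ThTC, 27.8 TPM in GFP-TC and 27.1 TPM in sECM only, all overlapping. Of 3 tested other ligands, 2 were lower against GFP-TC (median -0.020) and 1 against sECM only (median 0.36).

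**Figure D3:**
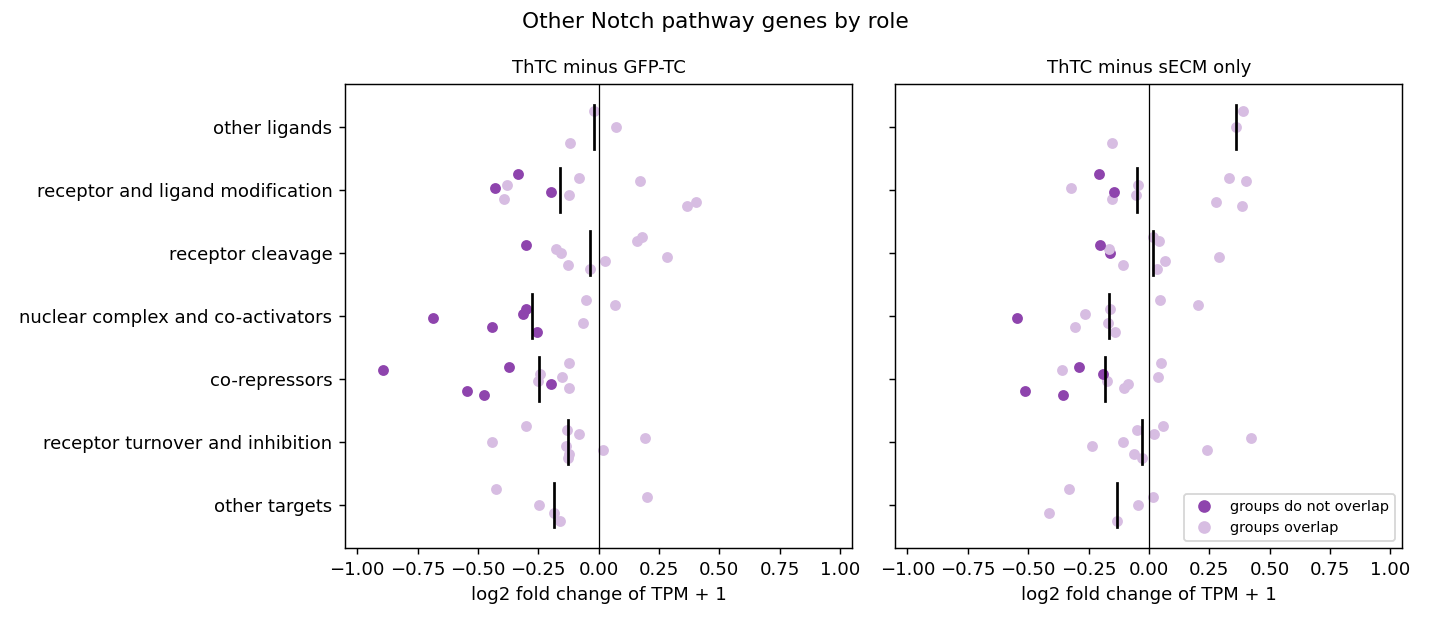
Log2 fold change of TPM + 1 (x axis) of 54 other Notch pathway genes by role (y axis), for ThTC minus GFP-TC and ThTC minus sECM only. Points are genes, dark where the libraries of the groups do not overlap, and black bars are medians. The co-repressors lie at or below -0.12 on the left, and every dark point lies below 0.

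Notch3 was set beside 12 markers of pericytes and smooth muscle. The summed marker level overlapped between groups, at 125 to 205 TPM in ThTC, 156 to 213 TPM in GFP-TC and 155 to 183 TPM in sECM only, and no marker was at 0 in all libraries. Of 10 tested markers, 5 were lower and 5 higher with ThTC in each of its comparisons. Pdgfrb, which encodes a PDGF receptor that pericytes carry, was at 34.65, 31.93 and 32.02 TPM in ThTC, 48.2, 63.5 and 57.2 TPM in GFP-TC, and 46.9, 53.1 and 63.1 TPM in sECM only. It was the only marker of the list below all 6 others.

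Cspg4, Mcam, Abcc9 and Kcnj8 also had lower means with ThTC than with either group. The contractile genes Acta2, Tagln and Cnn1 and the filament gene Des had higher means with ThTC, as did Rgs5. All of these higher markers overlapped between ThTC and GFP-TC, and Tagln in ThTC 1 was at 9.72 TPM, below every GFP-TC library. Acta2 and Cnn1 lay above sECM only without overlap, as 5.03% of tested genes did, and Tagln, Des and Rgs5 overlapped with it. Acta2 averaged 33.0 TPM in ThTC, 20.2 TPM in GFP-TC and 15.9 TPM in sECM only, and Tagln 38.5 TPM in ThTC, 27.3 TPM in GFP-TC and 12.6 TPM in sECM only. Myh11 and Higd1b stayed below the filter. As a share of the Pdgfrb level, Notch3 was at 14.6% to 16.3% in ThTC, 15.2% to 17.6% in GFP-TC and 14.9% to 20.2% in sECM only, which overlapped. As a share of the summed marker level it was at 2.47% to 4.05% in ThTC, 4.51% to 5.44% in GFP-TC and 5.14% to 6.12% in sECM only, which did not overlap with ThTC. The part of pericyte content in the Notch3 level was not tested further.

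**Figure D4:**
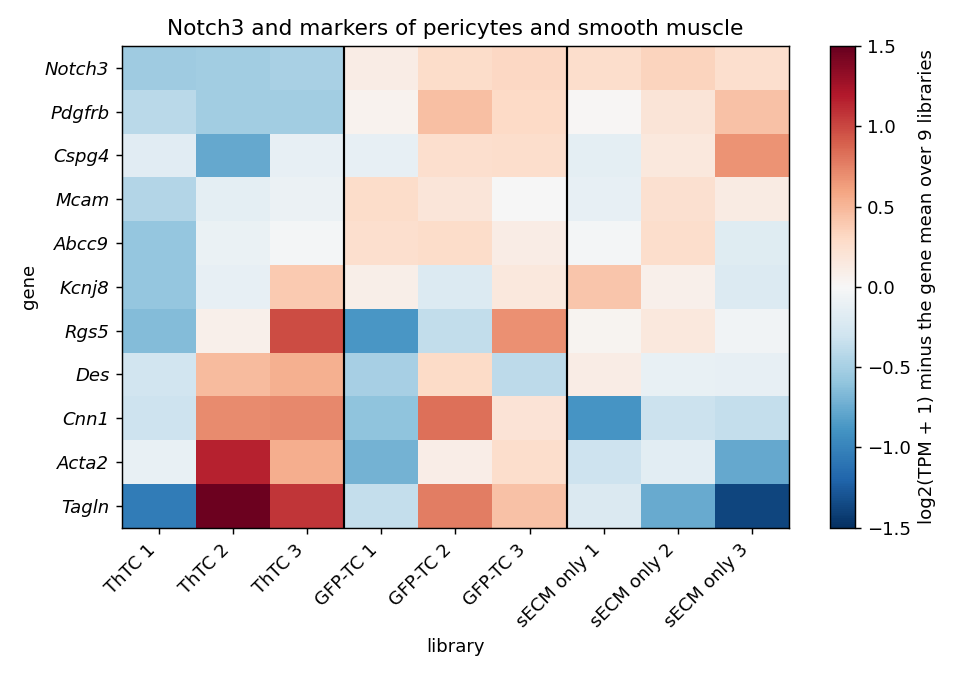
Log2(TPM + 1) of Notch3 and 10 tested markers of pericytes and smooth muscle (rows), each minus its mean over 9 libraries, by library (columns; blue lower, red higher). Notch3 and Pdgfrb are blue in all 3 ThTC libraries. Acta2 and Tagln lie above their means in ThTC 2, ThTC 3, GFP-TC 2 and GFP-TC 3, and below them in ThTC 1.

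The endothelial marker sum was 136 to 262 TPM in ThTC, 152 to 211 TPM in GFP-TC and 183 to 206 TPM in sECM only. As a share of that sum, Notch4 was at 2.97% to 4.16% in ThTC, 3.85% to 3.88% in GFP-TC and 3.30% to 3.53% in sECM only, and Dll4 at 1.75% to 3.33% in ThTC, 2.24% to 3.56% in GFP-TC and 2.23% to 2.69% in sECM only. Of 6 glioma-associated genes, 5 had a lower mean log2 level with ThTC in both comparisons, where 66.2% of tested genes did against GFP-TC and 55.6% against sECM only. ThTC lay below all 6 other libraries for Nes and Sox9, as for 7.58% of tested genes.

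Genes most alike in pattern were ranked by Pearson correlation of log2(TPM + 1) over 9 libraries, as a description of these libraries, which share their tissue content and scaling. For Notch1 they were Etv5 (r = 0.98, Spearman rho = 0.93, and r = 0.94 without the 2 libraries farthest from the Notch1 median), Plxna2 and Gucy1a2. For Hes1 they were Ttll5 (r = 0.95, rho = 0.83, and 0.90 without 2 libraries), Prcc and Zfp358. For Dll4 they were Trpm4 (r = 0.96, rho = 0.90), Sar1a and Zfp449, but these rest on few libraries, as r was 0.71, 0.66 and 0.45 without the 2 farthest. For Notch3 they were Pygo2, Gab1 and Pheta1. Since Notch3 splits the libraries into ThTC and the rest, r is given over the 6 libraries without ThTC, where it was 0.86 for Pygo2, 0.19 for Gab1 and -0.078 for Pheta1.

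The 10 genes lie on 5 chromosomes (GRCm38.p6), with Notch1 (26457902 to 26503822), Dll4 (119325784 to 119335666) and Jag1 (137081451 to 137116520) on chromosome 2, and Dll1 (15367354 to 15376932), Notch3 (32120820 to 32166896) and Notch4 (34564286 to 34588543) on chromosome 17. Hey1 (8663359 to 8667038) and Notch2 (98013538 to 98150367) lie on chromosome 3, Jag2 (112907803 to 112929812) on chromosome 12 and Hes1 (30065357 to 30067796) on chromosome 16. Jag1, Hes1 and Hey1 overlap no other annotated gene in GENCODE. Notch1, Notch2 and Jag2 overlap genes on their own strand, and reads of those partners cannot be told apart from theirs by strand. Notch1, Notch3, Notch4, Dll1 and Dll4 overlap genes on the opposite strand. Whether counting used strand is not given in the sources used here, so reads of opposite-strand partners cannot be told apart either.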

How the data were processed

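The study's 9 tumour RNA samples were read on the DNBseq platform, according to the labels. Per the file headers, the authors deposited 1 TPM value per gene and library, with 2 decimals. HISAT and the builds GRCm38.p6 and mm10 are named without versions in the submitters' processing notes, and the quantification tool is not given in the sources used here. Because TPM holds no depth, no count model or counting interval was used. Library totals differed from the TPM total by at most 0.74. No 2 libraries held the same values, with at most 0.419% of tested genes equal within a group.

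The 13829 genes that reached 1 TPM in 3 or more libraries were analysed as log2(TPM + 1) with limma 3.58.1 in R 4.3.3, with an intensity trend, all 9 libraries in one fit and Benjamini-Hochberg adjustment over all of them at 0.05. This scale understates the change of low genes. The fit was run on simulated data with independent noise and planted changes larger than any change of the 10 members. That run does not show how often changes of the size seen here would be called. Figures used matplotlib 3.10.9 in Python 3.11.15. Positions and promoter windows came from RefSeq and overlaps from GENCODE, on GRCm38.

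The members, lists and tests were chosen with earlier results of these data known. The rule for naming genes besides the 10 members took, of the other pathway genes, those with ThTC outside all 6 other libraries, the 3 with the smallest unadjusted p per comparison and the most abundant of each role, all pericyte and smooth muscle markers, the most abundant gene of each other marker list (given by the list's sum where it is not named), and the 3 genes most alike to Notch3, Hes1, Notch1 and Dll4. Not every gene the rule took is reported here. Sox2, Nes, Sox9, Neurl1a, Dtx1 and Hes5 were named after their values were seen. Same-numbered ThTC and GFP-TC libraries deviated together (correlations of deviations 0.743, 0.124 and 0.874), so the numbers were treated as pairs in an alternative fit, although the labels do not say what they stand for. The numbers of sECM only correlated at -0.548, 0.282 and -0.205 with ThTC and at -0.527, -0.136 and -0.187 with GFP-TC.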

Additional observations from a re-analysis of the deposited data

How the results depend on the processing

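The 26 member values with a test were refitted under 18 alternatives or, for low genes under the filter of 5 TPM, 17. In 433 of 459 refits they kept their direction and stayed on the same side of the threshold, and 26 changed sign. Direction could not change in many of these refits. The replicate blocks, the fit of 6 libraries alone, the filters and leaving out a library outside the comparison all keep the log2 fold change. The 433 is therefore no measure of how stable the directions are. The 15 values that never changed sign include Jag1, Hey1 and Notch1 in both ThTC comparisons. Notch3 and Hes1 with ThTC, chosen for being lower, are not counted. With each library left out in turn, the log2 fold changes that changed sign ran, for ThTC against GFP-TC, from -0.10 to 0.15 (Notch4) and -0.58 to 0.18 (Jag2). For ThTC against sECM only they ran from -0.27 to 0.023 (Notch2), -0.45 to 0.14 (Jag2) and -0.095 to 0.080 (Dll1). For GFP-TC against sECM only they ran from -0.23 to 0.14 (Notch1), -0.037 to 0.26 (Notch2), -0.086 to 0.012 (Notch3), -0.086 to 0.18 (Jag1), -0.28 to 0.48 (Jag2) and -0.072 to 0.071 (Hey1). With the neuron score as a covariate Notch4 was at -0.012 against GFP-TC and Dll1 at -0.011 against sECM only. With median-of-ratios scaling Notch2 was at -0.025 and Jag1 at -0.021 for GFP-TC against sECM only. Without GFP-TC 3 and ThTC 3 together, chosen after seeing the data, Dll1 was at -0.085 for ThTC and Jag2 at -0.28 for GFP-TC, both against sECM only. The cause was not tested.

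The count of called genes, 0 as reported, was 8 for ThTC against GFP-TC with the replicate block in 6 libraries and 0 to 1 for either comparison with sECM only when a library was left out. With the neuron score it was 2 for ThTC against sECM only, Retnlg and Hes1. That comparison had chosen Hes1, so its place in this count is no test of the gene. The neuron score also gave 1, Retnlg, in the comparison of GFP-TC with sECM only. With the replicate block in 9 libraries the count was 1 for GFP-TC against sECM only. The block changed no other call. Genes at an unadjusted p under 0.05 numbered 770 to 3452 against the 2065 of ThTC with GFP-TC, 332 to 1605 against the 954 of ThTC with sECM only, and 78 to 1314 against the 129 of GFP-TC with sECM only. TPM keeps no depth, so what depth limits is unknown.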

Other observations

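Some pathway genes were highest in the 2 libraries rich in neuron markers. Dner, a ligand-like gene of neurons, was at 2.04, 5.14 and 17.95 TPM in ThTC libraries, 1.65, 7.63 and 15.1 TPM in GFP-TC libraries and 5.56, 3.69 and 4.13 TPM in sECM only libraries. Neurl1a, a ubiquitin ligase gene, was at 3.9, 7.5 and 35.8 TPM in ThTC, 3.09, 8.11 and 27.7 TPM in GFP-TC and 10.8, 6.59 and 6.42 TPM in sECM only, and Dtx1, a Deltex gene, at 2.18, 6.35 and 20.3 TPM in ThTC, 1.57, 8.92 and 17.8 TPM in GFP-TC and 7.83, 5.02 and 4.67 TPM in sECM only. All 3 were highest in ThTC 3 and GFP-TC 3, where Hes5, a target in neural progenitors, reached 1.36 and 2.63 TPM against 0.05 to 0.82 TPM in the 7 other libraries. Jag2 was also highest in these 2 libraries, and Hes1 had its lowest level of each of the ThTC and GFP-TC groups in them.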
